A study of Mus musculus with 8 samples.

Results

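Immediate early response genes were examined in cells sorted as long-term hematopoietic stem cells (LT-HSCs) from mice that lack asrij and from their floxed controls. The 10 genes were taken by symbol: the AP-1 genes Fos, Fosb, Jun, Junb and Jund, the related factor gene Atf3, the zinc finger factor gene Egr1, Ier2, the phosphatase gene Dusp1 and the mRNA decay gene Zfp36. They are 10 of 54749 genes with a transcript in the deposited counts, and all 10 were among the 21902 genes that passed the low-count filter. Asrij, the protein of the gene Ociad1, is an endosomal and mitochondrial protein that has been studied in blood cell maintenance. RNA came from 4 mice of the genotype "asrij floxed" (homozygous for the floxed allele, replicates 1, 3, 4 and 5) and from 4 mice of the genotype "asrij KO" (whole-body knockout, replicates 2, 3, 4 and 5), with 1 library for each mouse. The labels give every mouse an age of 6 months and bone marrow as the tissue. Since the knockout is in the whole body, a difference in the sorted cells cannot be assigned to those cells alone. For the sequenced cells the methods give the sort as LSK CD150+ CD48+, and CD48- for the LT-HSCs of other assays. Values of single libraries are given below in the order of the replicates, 1, 3, 4 and 5 for floxed and 2, 3, 4 and 5 for KO mice.

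Immediate early genes are transcribed within minutes of a signal, because the factors that act on their promoters are already present in the resting cell. Fos and Jun proteins pair through leucine zippers to form the AP-1 transcription factor, Dusp1 switches off the MAP kinases that drive the response, and Zfp36 speeds the decay of short-lived mRNAs, including those of the response itself. In marrow cells these genes are known to respond to growth factors, to stress and to the handling of the tissue.

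The promoters of the genes whose RefSeq start lies within 50 bases of the start of the counted transcript are printed here, because Fos, Fosb and Jun were among the genes with the largest differences described below and their promoters can be compared with those of Junb and Dusp1. Windows from RefSeq (GRCm38.p6, 250 bases before to 50 after the start) were at hand for 8 of the 10 genes (Atf3, Jun, Fosb, Zfp36, Jund, Junb, Fos and Dusp1), and 5 of them met this limit. The 150 bases before the counted start are given 5′ to 3′ on the strand of the gene, for Fos at chr12:85473740-85473889 (plus strand), for Fosb at chr7:19310052-19310201, for Jun at chr4:95052223-95052372, for Junb at chr8:84978719-84978868 and for Dusp1 at chr17:26508520-26508669 (minus strand for these 4). Capitals mark TGACG, the core of the cyclic AMP response element, the full element TGACGTCA, which contains it, and the TATA box TATAAA.
Fos: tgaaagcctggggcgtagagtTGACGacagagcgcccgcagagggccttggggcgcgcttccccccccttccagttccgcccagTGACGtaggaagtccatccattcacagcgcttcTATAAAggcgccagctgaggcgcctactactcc
Fosb: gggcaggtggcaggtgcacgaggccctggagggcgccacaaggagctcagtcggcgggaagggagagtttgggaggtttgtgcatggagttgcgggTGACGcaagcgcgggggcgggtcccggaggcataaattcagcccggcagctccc
Jun: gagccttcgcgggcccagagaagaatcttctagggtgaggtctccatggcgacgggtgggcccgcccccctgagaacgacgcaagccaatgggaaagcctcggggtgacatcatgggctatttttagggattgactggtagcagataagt
Junb: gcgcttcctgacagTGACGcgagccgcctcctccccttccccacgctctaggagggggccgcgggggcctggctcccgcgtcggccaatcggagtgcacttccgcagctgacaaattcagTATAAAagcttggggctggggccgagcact
Dusp1: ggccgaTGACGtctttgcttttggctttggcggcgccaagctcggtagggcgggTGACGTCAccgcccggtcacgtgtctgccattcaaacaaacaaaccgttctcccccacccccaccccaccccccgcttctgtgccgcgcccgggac

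Within the 300-base windows, TGACG on either strand was found in 5 of the 8 genes (Atf3, Dusp1, Fos, Fosb and Junb) and in 20.8% of all 32851 windows. Fos held it at 129 and again at 66 bases before its start, Fosb once at 54 and Junb once at 136 bases before. The full element TGACGTCA was found in Dusp1 alone, 96 bases before the start, and in 1.79% of all windows. TATAAA lay 33 bases before the start of Fos and 30 before that of Junb, and 13.6% of all windows held it. The CArG box, bound by serum response factor, was matched in Zfp36 alone of the 8, 58 bases before its RefSeq start (1.63% of all windows), and the AP-1 site TGANTCA in none of the 8 (7.81% of all windows). Egr1 and Ier2 had no window, and bases more than 250 before the start were not searched in any gene. TGACG was added to the search after these windows had been seen. For Jund, Zfp36 and Atf3 the RefSeq start lay 1210, 1025 and 34706 bases from the counted start, so their windows are not printed. A match is a string of letters and shows neither binding nor use.

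The counted transcripts were those with the highest total over the 8 libraries (GENCODE M21, GRCm38). Fos (chr12:85473890-85477273) has 4 exons, Fosb (chr7:19302696-19310051) 4, Dusp1 (chr17:26505590-26508519) 4, Atf3 (chr1:191170296-191218039) 4, Zfp36 (chr7:28376784-28380253) 2 and Egr1, on chromosome 18, 2. Jun (chr4:95049034-95052222), Junb (chr8:84976910-84978718), Jund (chr8:70698949-70700616) and Ier2 (chr8:84661331-84662852) consist of 1 exon each, with no intron. In Fosb, 5 coding transcripts that cover nearly the same span hold the same 654 counts, so splice forms of Fosb cannot be told apart. Jund wholly contains Gm11175, annotated on the opposite strand, whose own count reached 51.2% of that of Jund. The use of strand in counting is not stated, so reads of Jund and of Gm11175 cannot be separated. Jun shares 689 bases with its antisense gene Junos and Zfp36 shares 1274 with Gm44710, whose counts were 23.9% and 3.94% of those of Jun and Zfp36.

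Library totals ran from 56661356 to 120858975 transcript counts, and the totals of gene counts from 23412829 to 44874882. Levels are given as CPM, the count of a gene relative to the size of its library after TMM scaling. Ociad1, the targeted gene, had 31.4 to 66.9 CPM in floxed and 11.7 to 19.7 CPM in KO libraries, with a log2 fold change of -1.58 ± 0.27 (SE; adjusted p = 0.0249, edgeR quasi-likelihood test over all genes), so both groups went with their labels. The first principal component of all tested genes (44.4% of the variance) placed replicates 4 and 5 of both genotypes on one side and replicates 1 to 3 on the other. Nothing in the labels names this split, and both sides hold 2 floxed and 2 KO libraries, so each result is given over all libraries and within each set of numbers. Markers of LT-HSCs were low in sum: the 12 genes of that list, 11 of which passed the low-count filter, summed to 90.9 to 117 CPM. Kit gave 46.8 to 60.2 CPM of this, and Procr and Hoxb5 were under 1 CPM in every library. In the same libraries 10 neutrophil genes summed to 16450 to 52420 CPM and 12 erythroid genes to 28250 to 296000 CPM. The mRNAs of these lists differ in abundance, so the sums do not give the share of each cell type.

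The first comparison asked whether loss of asrij changed the level of these genes. Over the 8 libraries, 9 of the 10 genes had a lower and 1 (Jund) a higher fitted level in KO, and none of them was called at an adjusted p under 0.05 with an absolute log2 fold change above 1.5. By the same rule, 261 genes were called, which is 1.19% of those tested (44 with the replicate number as a block over the shared numbers 3, 4 and 5). Of the 261, 99 were higher and 162 lower in KO, and with total count scaling, which placed the median log2 fold change of all genes at -0.2 in place of -0.01, 60 were higher and 253 lower. The balance turned the other way with limma-voom (113 higher, 73 lower), with the block (26 and 18) and in 6 of the 8 fits without 1 library (545 and 312 without floxed replicate 3). By the adjusted p alone, none of the 10 and 2.97% of all genes passed (1.75% with a lower level in KO), while Fos and Egr1 had an unadjusted p under 0.05, as did 21.8% of all genes. In no gene of the 10 did all KO libraries lie below all floxed libraries (7.66% of all genes) or above them (7.1%). This outcome depended on floxed replicate 3 and on the fit. Without that library, Fos (log2 fold change -2.51, adjusted p = 0.000454) and Egr1 (-1.63, adjusted p = 0.0178) were called, among 857 genes called of 22094 tested. With all 8 libraries, Fos was called with total count scaling, with no filter, with DESeq2 and with the set of library numbers as a term.

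**Figure D1:**
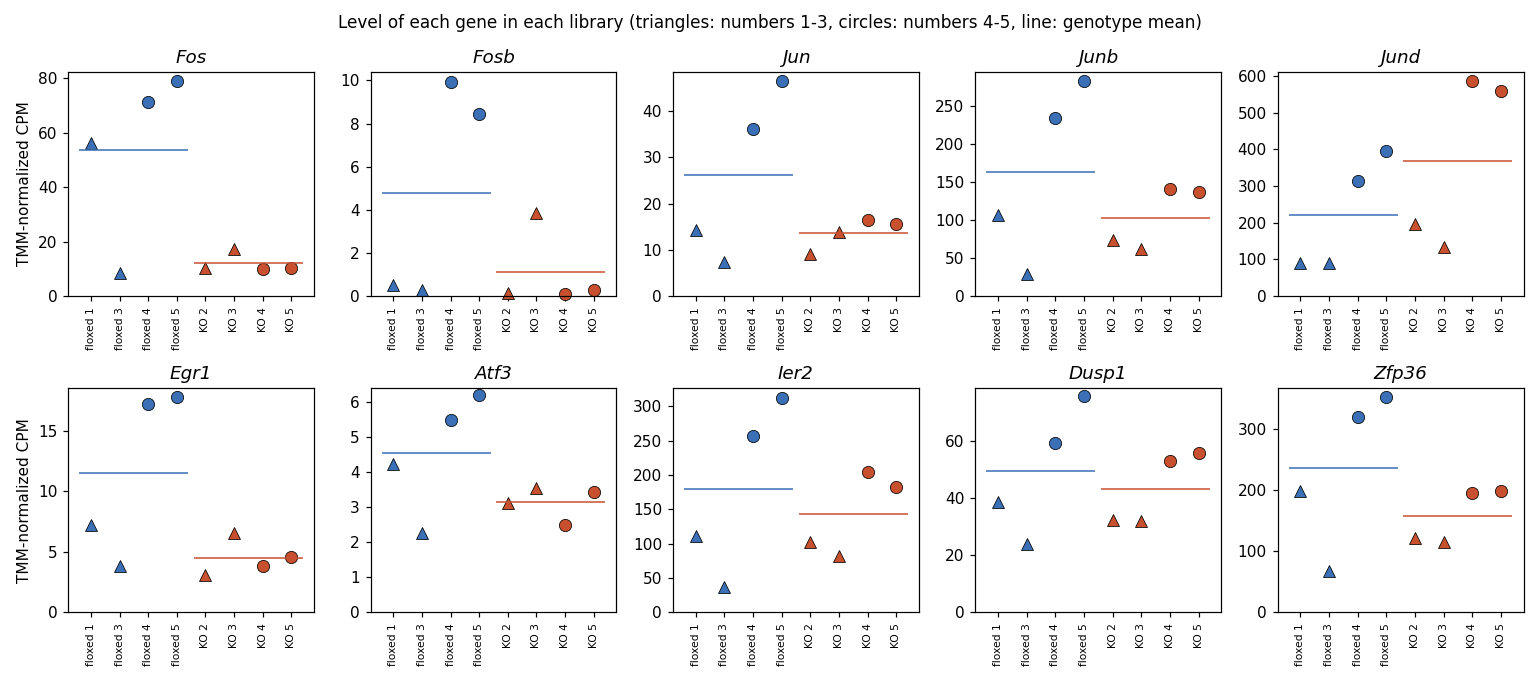
Level of each immediate early gene in each library, as CPM after TMM scaling on a linear axis that starts at 0. Blue points are floxed and red points KO libraries, triangles are replicates 1 to 3, circles replicates 4 and 5, and the lines mark the mean of 4 libraries. In 9 of the 10 panels, all but Jund, the 2 floxed circles lie above the 2 KO circles, while the triangles overlap.

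Fos, whose protein is the classical partner of Jun in AP-1, had the largest genotype difference among the genes with more than 10 CPM. Its level was 56.3, 8.55, 71.3 and 78.8 CPM in the floxed libraries, and 10.4, 17.4, 9.83 and 10.3 CPM in the KO libraries. The KO libraries were low, replicate 3 being the highest of them, and in floxed mice the level was high in 3 libraries and below every KO library in replicate 3. The mean was 53.7 ± 31.5 CPM in floxed and 12.0 ± 3.6 in KO (SD, n = 4), which differed on the log2 scale by -2.16 ± 0.55 (SE; adjusted p = 0.064, unadjusted p = 0.0031, edgeR). With the set of library numbers as a term, the value was -2.05 ± 0.55 (adjusted p = 0.0319), and Fos was then the 1 gene of the 10 called, against 2.38% of all genes.

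Fosb, a close relative of Fos known for the lasting truncated form that its splicing yields, was nearly silent in most libraries. It had 20, 16, 233 and 220 counts in the floxed libraries, and 6, 148, 3 and 8 counts in the KO libraries. Only floxed replicates 4 and 5 (9.91 and 8.43 CPM) and KO replicate 3 (3.85 CPM) exceeded 1 CPM. The fitted log2 fold change of -2.08 ± 1.32 (adjusted p = 0.397) did not pass, and it was -4.68 without KO replicate 3. In replicates 4 and 5 alone, the summed counts of 453 in floxed and 11 in KO, per TMM-scaled library size, gave a ratio of 46.3 (95% exact interval 25.6 to 93.4, which covers counting error only).

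The 3 Jun genes encode the partners that bind DNA with the Fos proteins, Junb and Jund being the forms often named as restraining growth. Jun had 14.3, 7.34, 36.2 and 46.5 CPM in the floxed libraries, against 9.1, 13.8, 16.5 and 15.5 CPM in the KO libraries. Junb had 106, 29.4, 233.5 and 281.6 CPM in floxed and 73.6, 62.4, 140.4 and 136.6 CPM in KO libraries. Both genes were highest in floxed replicates 4 and 5 and lowest in floxed replicate 3, so that the groups overlapped, with log2 fold changes of -0.92 ± 0.50 (adjusted p = 0.319) for Jun and -0.66 ± 0.58 (adjusted p = 0.559) for Junb.

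Jund went the other way. Its level was 89.7, 89.9, 313.4 and 395.2 CPM in the floxed libraries, and 196.3, 135.1, 586.3 and 558.8 CPM in the KO libraries. Within each set of numbers both KO libraries lay above both floxed libraries, and the sets differed more than the genotypes. The log2 fold change over all libraries was 0.73 ± 0.61 (adjusted p = 0.532), and with the set of numbers as a term it was 0.79 ± 0.16 (adjusted p = 0.0112, a threshold that 18.5% of all genes passed), under the limit of 1.5.

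The makeup of the Jun family is given per kilobase of counted span. Jund made up 46.0, 74.4, 57.2 and 58.2% of the summed Jun, Junb and Jund level in the floxed libraries, and 73.0, 67.6, 80.9 and 80.6% in the KO libraries. Its share was at most 58.2% in 3 floxed libraries and at least 67.6% in all 4 KO libraries, with floxed replicate 3 inside the KO range. Junb took most of the remainder (17.9 to 50.1%), and Jun itself 1.17 to 3.84%. Reads of the antisense gene within Jund cannot be separated from these shares.

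**Figure D2:**
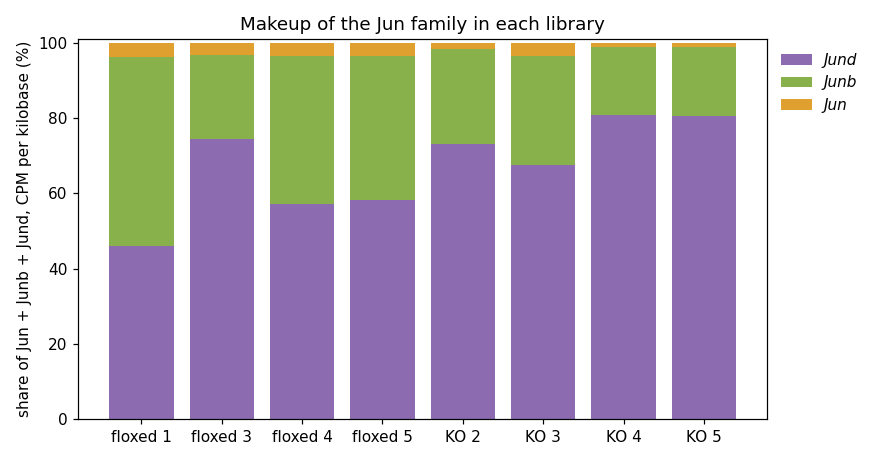
Share of Jund, Junb and Jun in the summed level of the Jun family in each library, as a percentage of CPM per kilobase of counted span. Jund fills 67.6 to 80.9% of the bar in the 4 KO libraries and 46.0 to 74.4% in the 4 floxed libraries.

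Egr1, a zinc finger factor that restrains the division and the mobilization of HSCs, had 7.22, 3.8, 17.2 and 17.8 CPM in the floxed libraries. In the KO libraries it had 3.08, 6.53, 3.83 and 4.57 CPM. Floxed replicates 1, 4 and 5 lay above every KO library, replicate 1 by little, and floxed replicate 3 lay among them. The means of 11.5 ± 7.05 and 4.5 ± 1.48 CPM (SD, n = 4) differed by -1.35 ± 0.47 on the log2 scale (adjusted p = 0.138).

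Atf3, a stress-induced factor of the ATF family that often represses its targets, had the smallest spread, from 2.27 CPM in floxed replicate 3 to 6.21 CPM in floxed replicate 5. The KO libraries lay within 2.48 to 3.56 CPM, inside the floxed range, and the log2 fold change was -0.52 ± 0.32 (adjusted p = 0.375). Ier2, a nuclear protein induced early by growth factors, had 111.8, 36.7, 257.2 and 312.9 CPM in floxed and 102.9, 81.4, 204.2 and 182.3 CPM in KO libraries. Its genotype difference (-0.33 ± 0.57, adjusted p = 0.784) was smaller than its error, and its sign was opposite with the replicate block (0.01) and without floxed replicate 5 (0.08).

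Dusp1 and Zfp36 act to end the response. Dusp1 had 38.7, 23.8, 59.1 and 75.8 CPM in floxed and 32.4, 31.9, 52.8 and 55.9 CPM in KO libraries, with a log2 fold change of -0.19 ± 0.35 (adjusted p = 0.799) that was 0.1 without floxed replicate 5. Zfp36, whose protein binds AU-rich elements of mRNAs, had 198.5, 67.8, 319.8 and 352.0 CPM in floxed and 120.6, 115.4, 195.5 and 197.4 CPM in KO libraries (log2 fold change -0.58 ± 0.44, adjusted p = 0.489). In both genes the KO libraries lay inside the floxed range.

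The genotypes were next compared within replicates 4 and 5 and within replicates 1 to 3, in 1 fit with 4 group means that share an estimate of the spread. In replicates 4 and 5, both KO libraries lay below both floxed libraries in 9 of the 10 genes, an order seen in 31.6% of all genes tested, and above them in Jund (33.6% of all genes). Egr1 was called there, with a log2 fold change of -2.06 ± 0.40 (adjusted p = 0.0447; 0.895% of all genes were called). Its levels of 17.2 and 17.8 CPM in floxed against 3.83 and 4.57 CPM in KO gave a ratio of the means of 4.16. The call for Egr1 was lost when any 1 of the 4 libraries of these numbers was left out (adjusted p = 0.227 to 0.323), without KO replicate 2 or 3 (0.0882 and 0.0883), with limma-voom (0.0581) and with sums over transcripts (0.0616), while the log2 fold change stayed between -2.29 and -1.95.

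Fos (-2.90 ± 0.70, adjusted p = 0.0651), Fosb (-5.51 ± 1.22, adjusted p = 0.0566) and Jun (-1.37 ± 0.32, adjusted p = 0.0605) did not pass the adjusted threshold in replicates 4 and 5. Their unadjusted p was under 0.05, as was that of Egr1, Atf3 and Jund, 6 of the 10 genes against 24.9% of all genes. With DESeq2, Fos (adjusted p = 0.016) and Fosb (adjusted p = 0.00242) were called, and both were called with total count scaling and with no filter. With no filter their adjusted p fell to 1.07e-34 and 3.55e-27 (edgeR), on 2 libraries per genotype. The share of all genes called in these other fits was not determined, so their calls have no background. Without floxed replicate 1 or 3, which are not among the libraries compared but enter the shared spread, the values were -2.9 for Fos and -5.51 for Fosb. Jun was called with total count scaling alone (-1.6, adjusted p = 0.0258). Atf3 (-0.98), Junb (-0.90), Zfp36 (-0.77), Ier2 (-0.56) and Dusp1 (-0.31) were lower in KO by values that did not pass (adjusted p = 0.131 to 0.441).

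In replicates 1 to 3, no gene of the 10 had both KO libraries below both floxed libraries, an order held by 25.7% of all genes, and none was called by both thresholds (1.78% of all genes). Jund alone had both KO libraries above (27.0% of all genes), with a log2 fold change of 0.88 ± 0.22 (adjusted p = 0.046, passed by 8.57% of all genes, while 28.3% had an unadjusted p under 0.05), against 0.69 ± 0.22 (adjusted p = 0.111) in replicates 4 and 5. In replicates 1 to 3 Jund no longer passed with total count scaling (adjusted p = 0.0643), without floxed replicate 4 or 5 (0.0748 and 0.0743), or without KO replicate 2, 3, 4 or 5 (0.31, 0.1, 0.104 and 0.104). The fitted values for Fos and Fosb there were -1.22 ± 0.66 and 2.28 ± 1.05, neither past the threshold (adjusted p = 0.264 and 0.193), and the other 7 lay between -0.19 and 0.31. With no filter, Fosb passed both thresholds in this set too, but higher in KO (2.37, adjusted p = 1.3e-06, edgeR). Because floxed replicates 1 and 3 were far apart (6.58-fold in Fos, 3.61-fold in Junb, 3.05-fold in Ier2, 2.93-fold in Zfp36), the sign in this set depended on which of them was kept: Fos was 0.76 without floxed replicate 1 and -1.99 without floxed replicate 3, and Zfp36 0.86 and -0.72.

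**Figure D3:**
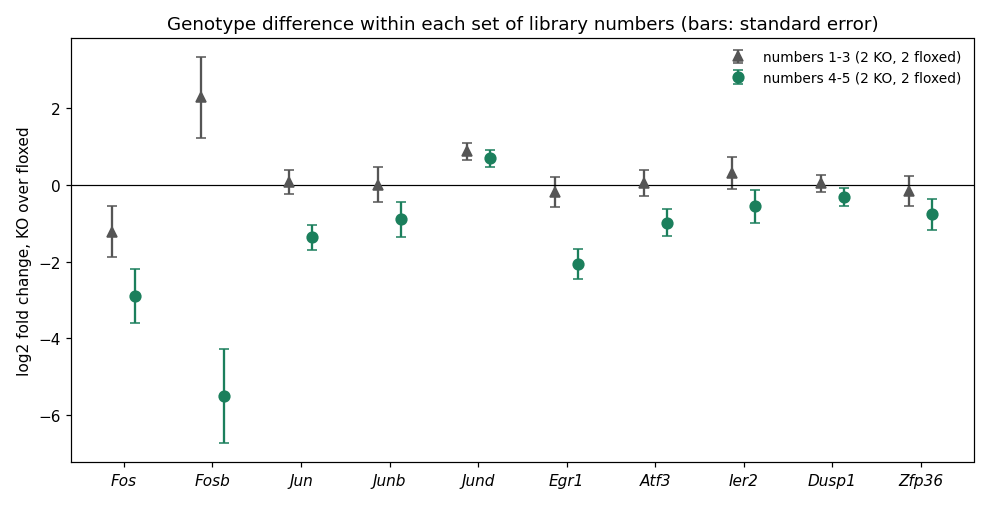
Log2 fold change of KO over floxed for each gene, fitted within library numbers 1 to 3 (grey triangles) and 4 to 5 (green circles), with bars of 1 standard error and 2 libraries per genotype in each set. The green circles lie below 0 in all genes but Jund, from -0.31 in Dusp1 to -5.51 in Fosb, while 7 of the grey triangles lie within 0.31 of 0 and those of Fos, Fosb and Jund lie farther out.

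The difference of the genotype effect between the sets was tested in the same fit. For none of the 10 genes, and for none of the 21902, did it pass an adjusted p of 0.05 (edgeR), while 8.51% of all genes and 3 of the 10 had an unadjusted p under 0.05. These were Fosb, whose effect differed by -7.80 ± 1.61 (SE) on the log2 scale, Egr1 (-1.86 ± 0.55) and Jun (-1.45 ± 0.45), with an adjusted p of 0.57 each. The values of the others were -1.68 for Fos, -1.03 for Atf3, -0.90 for Junb, -0.87 for Ier2, -0.60 for Zfp36, -0.36 for Dusp1 and -0.19 for Jund (adjusted p = 0.57 to 0.83).

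The sets of library numbers themselves were compared as a description, without a test, since the split had been seen in these counts. In 5 of the 10 genes (Jun, Junb, Jund, Ier2 and Dusp1) every library of numbers 4 and 5 lay above every library of numbers 1 to 3, as in 12.5% of all genes, and in none did every one lie below (13.3% of all genes). Within floxed mice this order held for all 10 genes (27.1% of all genes), and within KO mice for 6, the same 5 and Zfp36 (34.8% of all genes), so that 6 held it in both genotypes (19.8% of all genes). Adjusted for genotype, the log2 difference of numbers 4 and 5 over numbers 1 to 3 was 1.88 for Jund, 1.51 for Ier2, 1.48 for Junb, 1.22 for Jun, 1.04 for Zfp36, 1.02 for Fosb, 0.94 for Dusp1, 0.77 for Egr1, 0.40 for Fos and 0.35 for Atf3. The median over the 10 genes was 1.03, beside -0.07 over all genes. For Fosb the value turned to -0.58 without floxed replicate 1, to -0.25 without floxed replicate 3, and was 3.64 without KO replicate 3, to 2.72 and 2.68 without KO replicate 4 or 5 and to 3.04 with limma-voom. For Fos it turned to -0.07 in the lowest of the fits without 1 library.

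Within each genotype the log2 difference between the sets was 1.98 in floxed and 1.79 in KO mice for Jund. For Junb, Ier2, Dusp1, Zfp36 and Jun it was 1.93, 1.94, 1.11, 1.34 and 1.94 in floxed and 1.03, 1.07, 0.76, 0.74 and 0.49 in KO mice. For Fos, Fosb, Egr1 and Atf3 it was 1.22, 4.48, 1.67 and 0.85 in floxed and -0.46, -3.32, -0.19 and -0.17 in KO mice. These pairs of values were not shown to differ between the genotypes, since the difference is the interaction tested above.

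Per kilobase of counted span, the order of the mean levels was Jund (177), Ier2 (106), Junb (73.5), Zfp36 (56.5), Dusp1 (15.8), Fos (9.70), Jun (6.24), Egr1 (1.55), Fosb (0.40) and Atf3 (0.0807 CPM per kilobase). Ier2 lay above Junb, Zfp36 above Dusp1, Jun above Egr1 and Egr1 above Fosb in 8 of 8 libraries. Jund lay above Ier2 and Junb above Zfp36 in 7 of 8, Dusp1 above Fos and Fos above Jun in 6 of 8, and Fosb above Atf3 in 3 of 8, so that these neighbours were not separated in every library. By level per kilobase of span, Jund, Ier2, Junb and Zfp36 were above at least 96.2% of all tested genes, and Atf3 above 15.2%. Jund, Ier2 and Junb have no intron, while genes with introns are divided by a longer span, so these high percentiles also rest on the span. The spans include introns, and the counted transcript of Atf3 spans 47744 bases but has 1906 when spliced. Its level per kilobase, its last place and its percentile therefore rest on the span. Another transcript of Atf3, which spans 13045 bases, held 992 counts against 996. The order and the percentiles were not computed per spliced kilobase. The standing of Fos relative to Jun, per kilobase of span, was 3.7, 1.1, 1.85 and 1.59 in floxed and 1.08, 1.19, 0.561 and 0.624 in KO libraries. By this measure it was above 1 in all floxed libraries and below 1 in KO replicates 4 and 5. Fos covers 3384 bases with introns and 2108 when spliced, while Jun covers 3189 in both. Per spliced kilobase every ratio would be higher, so its position relative to 1 depends on the length used.

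Markers of myeloid cells are given beside the summed genes. The 10 neutrophil markers summed to 46360, 16450, 52420 and 46780 CPM in the floxed libraries, and to 31650, 28490, 24580 and 24760 CPM in the KO libraries. The 7 monocyte and macrophage markers summed to 8712, 3040, 11030 and 10610 CPM in floxed and to 4876, 4602, 4977 and 4908 CPM in KO libraries. Like Fos, Jun, Junb, Ier2, Atf3, Dusp1 and Zfp36, both sums were lowest in floxed replicate 3, and neither list had a gene past an adjusted p of 0.05. Erythroid markers summed to 28250 to 71310 CPM in floxed and 123600 to 296000 CPM in KO libraries, with 3 of 12 genes higher past the adjusted threshold, and 6 of 7 megakaryocyte markers were higher as well. The sum of the 9 genes other than Jund was 537.6, 179.9, 1010 and 1180 CPM in floxed and 355.3, 336.1, 625.7 and 606.3 CPM in KO libraries. Within KO mice replicates 4 and 5 had higher gene sums, lower neutrophil sums and slightly higher monocyte and macrophage sums than replicates 2 and 3. The neutrophil genes did not move together there: S100a8, S100a9, Ctsg, Camp, Lcn2 and Mmp8 were lower, Elane, Prtn3 and Ngp were higher, and Ltf overlapped. Floxed replicates 1 and 5 had close neutrophil sums at different gene sums. In these bulk libraries fewer cells of a type and less RNA per cell cannot be told apart, and the part of other cell types in the differences was not tested.

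**Figure D4:**
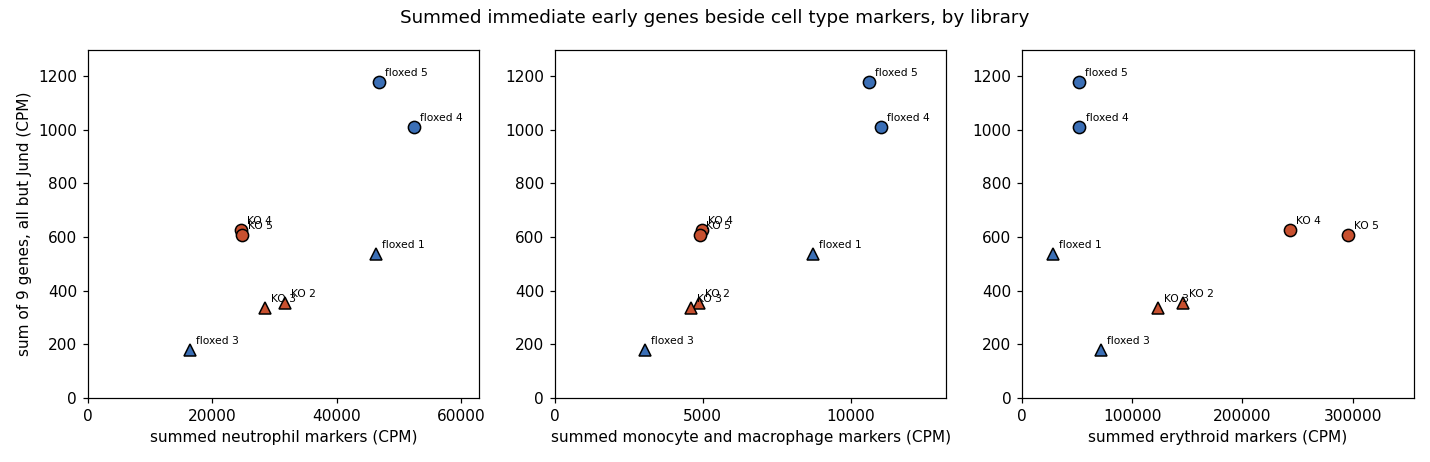
Sum of the 9 immediate early genes other than Jund (vertical axis, CPM) against the summed neutrophil, monocyte and macrophage, and erythroid markers (horizontal axes, CPM), with 1 point for each library, floxed in blue, KO in red, triangles for numbers 1 to 3 and circles for numbers 4 and 5. Floxed replicate 3 is lowest in the gene sum (179.9) and in both myeloid sums, and floxed replicates 4 and 5 are highest in the gene sum (1010 and 1180).

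The base composition of the transcripts also went with the set of numbers. Over all tested genes, the median log2 difference of numbers 4 and 5 over 1 to 3 was -0.52 in the lowest decile of GC content and 0.56 in the highest, and the median of KO over floxed was -0.28 and 0.24. The spliced transcripts of the 10 genes held 50.2% (Atf3) to 67.1% GC (Jund), and Jund, Junb (62.6%) and Ier2 (60.9%) were in the highest decile. All 10 genes lay above the median of their own decile in the difference between the sets, a value that by definition lies in the middle of that decile. In the lowest of the fits without 1 library, Fos (-0.07) and Fosb (-0.58) lay below their decile medians of 0.06 and 0.29, while the others stayed above theirs. The part of GC content was not tested.

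**Figure D5:**
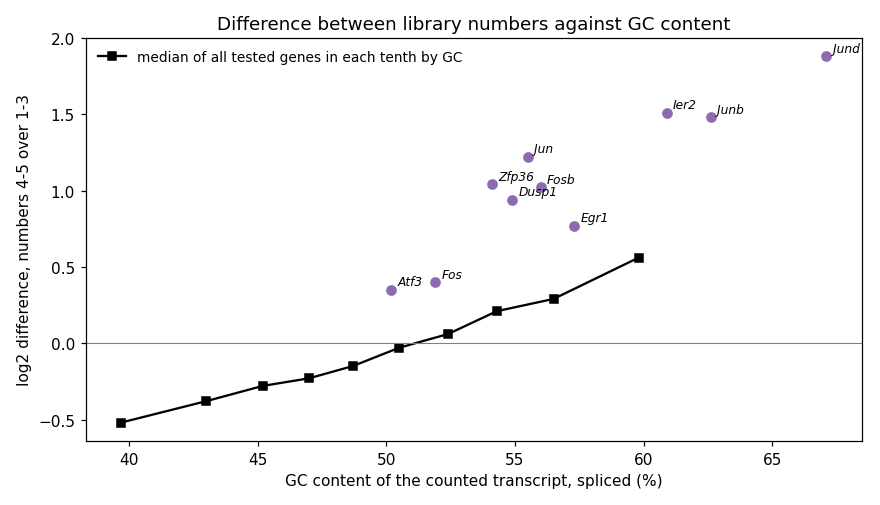
Log2 difference of library numbers 4 and 5 over 1 to 3 against the GC content of the spliced counted transcript. Black squares are the medians of all tested genes in deciles of GC content (from -0.52 to 0.56), at the median GC content of each, and purple points are the 10 immediate early genes, which lie above the line.

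Of 9191 other genes with a mean of at least 10 CPM, those whose profile over the 8 libraries was nearest to the mean profile of the 10 were Gpr84 (root mean square difference of centred log2(CPM + 1) of 0.177), the pseudogene Gstm2-ps1 (0.193), Osm (0.2), Eno1b (0.201) and Phlda1 (0.21). Gpr84, a fatty acid receptor of myeloid cells, had 21.9, 8.98, 36.3 and 42.6 CPM in floxed and 11.9, 13.2, 18.9 and 23.4 CPM in KO libraries. Osm, the cytokine oncostatin M, had 23.3, 8.19, 35.3 and 35.5 CPM in floxed and 13.2, 14.9, 17.9 and 18.1 CPM in KO libraries. Among the 10 themselves, Junb and Ier2 were nearest to each other (0.16), while the nearest neighbour of Jund (Ier2, 0.626), Fosb (Egr1, 0.652) and Fos (Egr1, 0.596) was farther away.

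Other genes of the response were taken from lists of related factors. Of 40 other immediate early and early response genes, 38 were tested and 3 passed an adjusted p of 0.05, all higher in KO (2.97% of all genes passed in either direction). Gadd45a, a growth arrest and DNA damage gene, rose from 79.3 ± 11.6 to 135 ± 5.32 CPM (SD, n = 4; log2 fold change 0.77, adjusted p = 0.0329). Ppp1r15a, which ends the translational arrest of the stress response, rose from 123 ± 52.9 to 321 ± 65.1 CPM (1.39, adjusted p = 0.0408), and Id3, an inhibitor of helix-loop-helix factors, from 5.28 ± 1.66 to 12.4 ± 3.3 CPM (1.23, adjusted p = 0.0495). In all 3, every KO library lay above every floxed library, as in 7.1% of all genes, and none of the 3 reached the limit of 1.5. They were named for their adjusted p in these same libraries, which favours this order, so the order adds nothing to the test. The same holds for Dusp8 and Nab1 below. The median log2 fold change of the list was -0.03, beside -0.62 for the 10 genes and -0.01 for all genes.

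In 17 of these 38 genes every library of numbers 4 and 5 lay above every library of numbers 1 to 3 (12.5% of all genes). The largest log2 differences were those of the C/EBP factor gene Cebpb (2.58, from 31.8 to 85.8 CPM in numbers 1 to 3 and 315.8 to 502.8 CPM in numbers 4 and 5), Klf2 (1.82) and Cebpd (1.66). The genotype differences of these 3 genes were -0.24, 0.23 and -0.28, each within its standard error.

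Of 17 other AP-1 and ATF family genes, none passed the adjusted threshold between genotypes. The smallest adjusted p was that of Maf, a bZIP factor (log2 fold change 0.77, adjusted p = 0.0581), followed by Mafk (0.66, 0.127) and Atf7 (-0.47, 0.148), and Batf2 and Atf5 differed between the sets by 1.30 and 1.06. Of 15 phosphatases and feedback inhibitors of the MAP kinase pathway, none passed. Dusp8, a phosphatase of stress-activated kinases, had 5.7, 20.1, 7.99 and 8.35 CPM in floxed and 24.0, 21.1, 38.0 and 34.6 CPM in KO libraries (1.48 ± 0.39, adjusted p = 0.0671), higher in every KO library than in any floxed library (7.1% of all genes). Spred1 (-0.58, adjusted p = 0.105) and Spry1 (1.15, adjusted p = 0.117) followed, and Dusp5, Dusp2 and Dusp7 differed most between the sets (1.05, 0.98 and 0.81).

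Of 11 tested mRNA decay factors none passed, with Hnrnpd (0.40, adjusted p = 0.173), Cnot7 (-0.47, 0.174) and Cnot1 (-0.81, 0.226) nearest to it, and Zfp36l2, the relative of Zfp36, had a genotype difference of -0.22. The set differences of Zfp36l2, Cnot1 and Khsrp were 0.98, -0.98 and 0.55. Of 26 upstream kinases and promoter factors, Nab1 passed. It encodes a corepressor of Egr factors and fell from 53.6 ± 10.5 to 29.8 ± 4.6 CPM (log2 fold change -0.85, adjusted p = 0.0441), with every KO library below every floxed library (7.66% of all genes). Map2k3 (0.63, adjusted p = 0.0625) and Map2k4 (-0.47, 0.104), kinases of the stress-activated branch, did not pass. Srf, which encodes the factor that binds CArG boxes, had 43.9, 28.6, 59.7 and 86.9 CPM in floxed and 38.0, 33.5, 67.4 and 71.0 CPM in KO libraries, a genotype difference of -0.06 ± 0.36 and a set difference of 0.99, and the set differences of Crem and of the coactivator gene Mrtfa were -0.69 and 0.67.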

How the data were processed

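Per the labels, the authors used FastQC, Trim Galore and Bowtie2 with GRCm38 (mm10), and the deposited values are unnormalized read counts for each of 138930 Ensembl transcripts in each of 8 libraries. The counting tool, annotation release and use of strand are not given in the sources used here. The counts were checked to be whole in all 8 files, of which 7 hold tabs where their name implies commas and were recorded as another unit in the automatic check. No per-sample column was left unused, and no libraries were identical.

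GENCODE M21 placed 138789 transcripts on 54749 genes, and each gene took the counts of 1 transcript, the one most counted over all libraries. Genes were filtered by filterByExpr, scaled by TMM and tested with edgeR 4.0.16 (glmQLFit, glmQLFTest, R 4.3.3) with Benjamini-Hochberg adjustment over 21902 genes, and were called when the adjusted p was under 0.05 and the absolute log2 fold change over 1.5. A fit with 4 group means gave the comparisons within sets of library numbers. limma 3.58.1, DESeq2 1.42.0, Python 3.11.15, pandas 2.3.3, scipy 1.17.1 and matplotlib 3.10.9 were also used, and the fits were tested on simulated data. Alternatives were sums over transcripts, other scalings, filters, tests and thresholds, haemoglobin genes left out, the replicate block, a term for the set of numbers, and each library left out in turn. Promoter sequences are from RefSeq. Intervals cover counting error only.

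The 10 genes, the lists and the split by library numbers were chosen with earlier results of these data known. From each list, the text names the 3 genes with the smallest adjusted p and the 3 with the largest set difference at a mean of at least 5 CPM, and the 5 genes nearest in profile. In the AP-1 and ATF family list, 1 gene that this rule names is not reported here. Of the list symbols, Mkl1 was matched as Mrtfa.

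The replicate block paired the samples by the library numbers in the titles. Deviations from the genotype means correlated across genes at r = 0.427, 0.454 and 0.707 in the pairs of number 3, 4 and 5. Pairs of other numbers within a set reached 0.359 to 0.711, so the correlations went with the set and cannot show a pairing by number. The mice differ, and the main comparison was made without the block. P-values measure the spread between these mice, which in the main comparison includes the difference between the sets of library numbers.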

Additional observations from a re-analysis of the deposited data

Results flagged for a closer look

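In 2 of the 20 groups of 4 libraries examined (10 genes in 2 genotypes), 1 library lay apart from the other 3 by more than Dixon's 95% limit, which chance passes in about 1 group in 20. Both were KO replicate 3. Fos had 17.35 CPM there, and 9.827 to 10.38 CPM in the other KO libraries. Fosb had 3.849 CPM there, and 0.1064 to 0.2899 CPM in the others, on 148 counts against 3 to 8. Egr1 was also highest in this library among KO mice (6.527 CPM, against 3.075 to 4.565 CPM) without passing the limit, while Junb (62.36 CPM), Jund (135.1), Ier2 (81.37), Dusp1 (31.93) and Zfp36 (115.4) were lowest there among KO mice.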

How the results depend on the processing

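The count of 261 genes called moved to 502 with DESeq2, 521 with the set of numbers as a term, 651 with no limit on the fold change, 624 with the unadjusted p, and 51 to 857 when 1 library was left out, the highest without floxed replicate 3. With the replicate block, which pairs numbers 3, 4 and 5, 44 genes were called, and none of the 10. Between 0 and 2 of the 10 were called when 1 library was left out. Fos was the 1 gene called with total count scaling (adjusted p = 0.0494), with no filter on low counts (0.0309), with DESeq2 (0.00117) and with the set of numbers as a term (0.0319), and 1 of the 10 passed with the unadjusted p and the same fold limit. The block gave Fos -1.73 (adjusted p = 0.337) and changed no call among the 10.

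Of 179 recomputed log2 fold changes, 3 turned sign, all near 0: Ier2 (0.01 with the block, and -0.66 to 0.08 when 1 library was left out) and Dusp1 (-0.41 to 0.1 when 1 library was left out, the highest of both without floxed replicate 5). Ociad1 stayed between -1.77 and -1.29 and lost its call in 5 of 18 fits, each without 1 library.

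The fits within sets were recomputed after the data had been seen. None of the 10 turned sign within numbers 4 and 5. Within numbers 1 to 3, 18 of 150 values did, 13 of them without 1 library. Total count scaling gave Jun -0.05, Junb -0.12, Atf3 -0.1 and Dusp1 -0.1, and sums over transcripts gave Junb -0.02. Leaving out 1 library took Fos from -1.99 to 0.76, Fosb from -1.38 to 3.27, Jun from -0.3 to 0.7, Junb from -0.61 to 1.28, Egr1 from -0.83 to 0.4, Ier2 from -0.25 to 1.39, Atf3 from -0.31 to 0.62, Dusp1 from -0.24 to 0.5 and Zfp36 from -0.72 to 0.86. The cause was not tested.

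With 4 libraries per genotype, no immediate early gene passed the adjusted threshold in the main comparison. With 2 per genotype in each set, Egr1 alone passed it in replicates 4 and 5. Jund alone passed it in replicates 1 to 3, under the limit on the fold change. The differences of the other genes, Junb, Ier2 and Dusp1 among them, passed in neither set. Fosb rests on 3 to 20 counts in 5 libraries.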
